A study of Mus musculus with 4 samples.

Results

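Gdf9, Bmp15, Fgf8, Oosp1, Oosp2 and Oosp3 encode proteins that the oocyte secretes, and they were followed here in Ell3 knockdown and control mouse oocytes. The genes were taken by symbol, and 6 of the 53677 gene symbols in the counts are covered. All 6 had counts in each library and passed the filter on low counts. The libraries came from oocytes at the germinal vesicle stage, arrested in meiotic prophase, collected 48 h after an injection of 7.5 IU PMSG, which stimulates follicles to grow, in the females. One group carried a knockdown of Ell3 (Ell3 KD, 2 libraries) and the other was control oocytes (Ctrl, 2 libraries), with 5 pooled oocytes in each library and the genotype as the only labelled difference. The strain and age of the females, the way the knockdown was made and the handling of the controls are not stated in the labels.

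A growing oocyte directs the somatic cells around it through secreted factors. GDF9 and BMP15 belong to the TGF-beta family. They are made as proproteins, cleaved by convertases, and act on granulosa and cumulus cells through the type II receptor BMPR2 and type I receptors, with SMAD proteins carrying the signal. FGF8, a fibroblast growth factor, acts with BMP15 in mice to promote glycolysis in cumulus cells. The OOSP proteins are oocyte-secreted proteins related in sequence to the placental protein PLAC1.

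Library totals were 89632815 and 65722415 counts in Ell3 KD and 45131278 and 48669267 counts in Ctrl, so the groups did not overlap in depth. The targeted gene Ell3, which encodes an RNA polymerase II elongation factor, had 255 and 181 counts in Ell3 KD against 371 and 483 in Ctrl (log2 fold change -1.66 ± 0.14, SE; adjusted p = 6.04e-10 in edgeR). Oocyte markers were present in every library, with all 15 at a mean of at least 1 CPM, 5 called higher and 4 lower in Ell3 KD. Among them the oocyte histone gene H1foo (log2 fold change 0.20 ± 0.02) and Dppa3 (0.49 ± 0.03) rose and Nlrp5 (-0.23 ± 0.03) fell, each with an adjusted p of at most 3.55e-07 in edgeR. CPM are counts scaled to a library total of 1e+06 with TMM factors, which correct for a few abundant genes. Of 20 cumulus and granulosa markers, 10 stayed under 1 CPM in every library and Ereg had no count. Their summed level was 345.2 and 356.9 CPM in Ell3 KD and 337.6 and 339.8 CPM in Ctrl, of which Serpine2 alone made 291.2 ± 6.04 CPM in Ell3 KD and 279.1 ± 3.72 CPM in Ctrl (SD, n = 2 each). Inha, Gja1, Ptgs2 and Npr2 of that list were called higher in Ell3 KD, at mean levels of 0.274 CPM for Npr2 to 5.59 CPM for Gja1 in Ell3 KD, and Nr5a2 was called lower. Amh, Amhr2, Foxl2, Areg and Npr2 had counts in both Ell3 KD libraries, 28 at most, and 0 in both Ctrl libraries, which were the shallower ones. Other scarce markers of that list, Fshr, Has2, Nr5a1, Hsd17b1 and Inhba, had a lower mean CPM in Ell3 KD. Has2 and Hsd17b1 had too few counts to be tested, and Fshr, Nr5a1 and Inhba were tested and not called. Fshr, for example, was at 0.523 CPM in Ell3 KD and 0.955 CPM in Ctrl. The part of follicle cell RNA in the results that follow was not tested. Theca marker sums were 5.40 and 5.57 CPM in Ell3 KD and 6.15 and 6.16 CPM in Ctrl, with Insl3 and Col1a2 at 0. Of 5 tested, Dcn was called higher, at 1.88 ± 0.158 CPM in Ell3 KD and 0.859 ± 0.132 CPM in Ctrl, and Cyp11a1, at 1.97 ± 0.0838 CPM in Ell3 KD and 2.69 ± 0.102 CPM in Ctrl, did not pass the test. Blood and endothelial marker sums were 48.7 and 51.3 CPM in Ell3 KD and 65.9 and 63.9 CPM in Ctrl, with the hemoglobin genes Hba-a1, Hba-a2, Hbb-bs and Hbb-bt at 0. All 3 tested, Pecam1, Cd68 and Alas2, were called lower, and Pecam1 made 48.7 ± 1.95 CPM of the sum in Ell3 KD and 61.9 ± 1.81 CPM in Ctrl. Alas2 was called on 6 and 3 counts in Ell3 KD against 8 and 18 in Ctrl.

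Promoters are shown for Oosp1 and Oosp2, neighbouring genes that were both called higher, and for Bmp15, which did not pass the test. The choice was set by the promoter table used here, which matched these 3 of the 6 genes and not Gdf9, Fgf8 and Oosp3. Each runs from 250 bases before to 50 bases after the RefSeq start on GRCm38.p6, 5′ to 3′ on the gene's own strand. Oosp1 lies at chr19:11691002-11691301, Oosp2 at chr19:11660510-11660809 and Bmp15 at chrX:6320675-6320974, all on the minus strand. Capitals mark E-boxes (CANNTG, bound by basic helix-loop-helix factors), TATA boxes (TATAAA) and homeodomain sites of the kind bound by NOBOX, all searched on both strands. For the homeodomain sites the letters searched were TAATTG, its variant TAATTA, and the further variant TAGTTG.
Oosp1: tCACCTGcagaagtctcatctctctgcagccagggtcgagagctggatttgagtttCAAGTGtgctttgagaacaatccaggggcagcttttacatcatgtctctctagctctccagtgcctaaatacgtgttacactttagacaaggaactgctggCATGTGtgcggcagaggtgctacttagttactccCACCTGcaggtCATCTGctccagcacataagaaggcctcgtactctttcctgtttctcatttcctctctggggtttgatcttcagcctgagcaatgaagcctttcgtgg
Oosp2: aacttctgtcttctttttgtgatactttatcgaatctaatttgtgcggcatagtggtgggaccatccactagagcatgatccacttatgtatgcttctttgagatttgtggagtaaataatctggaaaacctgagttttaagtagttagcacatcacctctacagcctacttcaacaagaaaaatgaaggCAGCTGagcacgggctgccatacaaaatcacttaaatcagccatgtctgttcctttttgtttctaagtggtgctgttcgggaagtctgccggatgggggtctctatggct
Bmp15: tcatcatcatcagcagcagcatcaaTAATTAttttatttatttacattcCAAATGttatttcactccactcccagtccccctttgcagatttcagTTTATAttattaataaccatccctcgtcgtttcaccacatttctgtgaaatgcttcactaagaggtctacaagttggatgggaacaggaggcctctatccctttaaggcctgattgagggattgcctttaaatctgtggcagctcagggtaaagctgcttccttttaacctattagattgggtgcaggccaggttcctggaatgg
The Oosp1 promoter held 5 E-boxes, which began 249, 194, 93, 59 and 48 bases before the start. Of 32851 promoters of the same length, 72.3% held at least 1 E-box and 2.1% held 5 or more, a cut equal to the number in Oosp1. The Oosp2 promoter held 1 E-box, 60 bases before the start, and neither Oosp promoter held the TATA or the NOBOX-type letters. The Bmp15 promoter held 1 of each, the NOBOX-type letters 225 bases before the start, the E-box 201 bases before it and the TATA letters, read on the other strand, 155 bases before it. The NOBOX-type letters occurred in 17.9% of all promoters and the TATA letters in 13.6%. No motif pair overlapped in these windows, and a match is a description of the sequence, not a site in use.

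Since the cDNA was made from polyadenylated RNA, the ends of the transcripts are shown as well. Each stretch of 30 bases comes from near the 3′ end of a protein-coding transcript of the gene in GENCODE M21. Transcripts marked as principal were taken first, then those with complete ends, then the longest. The polyadenylation signal AATAAA is in capitals. TTTTAT, a cytoplasmic polyadenylation element of the kind that CPEB binds on dormant oocyte mRNAs, is also in capitals.
Gdf9: TTTTATgtgacggaagAATAAActgttgat
Bmp15: ttaatcttaaagAATAAAttttcatttatg
Oosp2: atacatcaatgaAATAAAggctcagcttat
Oosp3: ccacaacctataAATAAAacaTTTTATtgt
The search took TTTTAT and TTTTAAT on the transcript strand in the last 100 bases of the 3′ UTR. Gdf9 had 1 such element, 39 bases from the transcript end, and Oosp3 had 2, at 49 and 10 bases from the end. Bmp15, Fgf8, Oosp1 and Oosp2 had none in that window. Among 13767 tested genes with a coding transcript, 18.4% had one. The annotated ends of Fgf8 and Oosp1 held neither AATAAA nor ATTAAA in their last 60 bases.

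The genes lie at 4 places in the genome. On GRCm38, Gdf9 is on chromosome 11 from 53431023 to 53437904 on the plus strand, and Bmp15 is on chromosome X from 6314107 to 6320721 on the minus strand. Fgf8 and the Oosp genes are far apart on chromosome 19. Fgf8 runs from 45736798 to 45742915 on the minus strand. Oosp2 (11647279 to 11660559, minus strand), Oosp1 (11667460 to 11691150, minus strand) and Oosp3 (11697055 to 11711874, plus strand) stand side by side within 64596 bases. Exons of Gdf9, Bmp15, Fgf8, Oosp1 and Oosp2 overlap no other annotated gene. Oosp3 shares 57 exon bases, 6.93% of its exon length, with the pseudogene Gm19224 on the other strand, which had 0 and 0 counts in Ell3 KD and 2 and 0 in Ctrl.

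All 6 genes were well expressed. Per kilobase of exon (RPKM, CPM divided by exon length in kilobases), Gdf9 stood highest at a mean of 1085 RPKM over the 4 libraries, rank 28 of 17308 tested genes with a known length. Bmp15 followed at 661.8 RPKM (rank 53), then Oosp2 at 513.9 (rank 70), Oosp1 at 272.5 (rank 177), Fgf8 at 229.4 (rank 237) and Oosp3 at 133.1 RPKM (rank 458). Neighbours in this order differed beyond the spread of the libraries except Oosp1 and Fgf8, whose ranges of 225.3 to 321.6 and 209.0 to 246.4 RPKM overlapped. Within each library Oosp1 was still above Fgf8. Together the 6 genes took 0.518% and 0.522% of all counts in Ell3 KD and 0.543% and 0.521% in Ctrl. The groups overlapped, and an exact two-sided permutation test over the libraries gave p = 0.667, where 0.333 is the smallest p that 2 against 2 libraries allow. Each library pooled 5 oocytes, so fewer cells with a transcript and less of it per cell cannot be told apart.

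**Figure D1:**
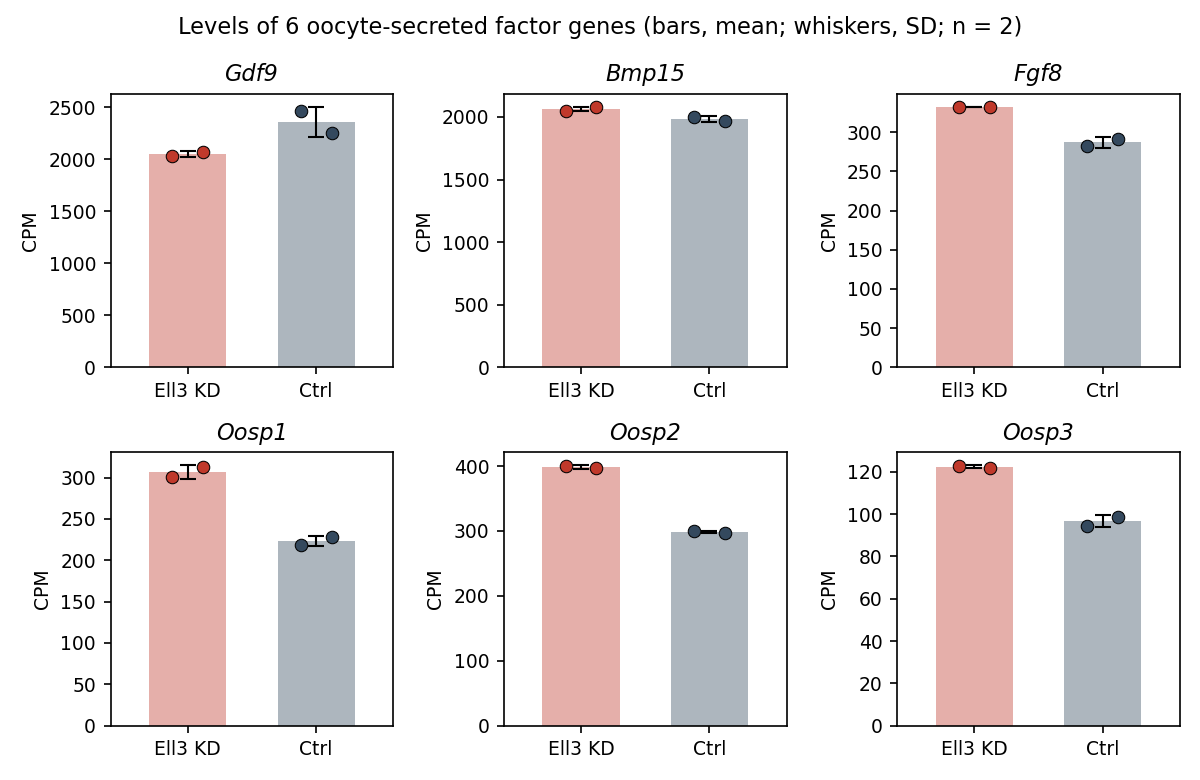
Level of each gene in CPM (vertical axis, from 0) in Ell3 KD and Ctrl. Points are libraries, bars means and whiskers SD (n = 2 each). In each panel the points of one group lie apart from those of the other, with Gdf9 lower in Ell3 KD at 2030 and 2068 CPM and the Oosp genes and Fgf8 higher.

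Ell3 KD oocytes had less Gdf9 mRNA and more mRNA of Fgf8 and of the 3 Oosp genes, as shares of each library's RNA, whereas Bmp15 did not pass the test. Called means an edgeR quasi-likelihood adjusted p under 0.05 over all 17879 genes tested. By this rule 4 members were higher and 1 was lower in Ell3 KD, while 21.1% of all genes tested were called higher and 21.8% lower. Abundant genes were called more often. Among the 3886 genes at a mean of at least 50 CPM, a class that holds all 6 members, 36.4% were called higher and 23.2% lower. Both Ell3 KD libraries lay above both Ctrl libraries for 5 members and below both for Gdf9, a separation in CPM that 35.0% of all genes tested showed upward and 35.7% downward. The changes were small, between 1.15-fold lower and 1.37-fold higher among called members, with a median log2 fold change of 0.28 over the 6 against -0.0024 over all genes tested.

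Gdf9 is needed for follicle growth beyond the primary stage in mice. It had 2030 and 2068 CPM in the Ell3 KD libraries, against 2465 and 2255 CPM in the Ctrl libraries. Both Ell3 KD libraries were lower than both Ctrl libraries, and the Ctrl libraries stood further from each other than the Ell3 KD libraries did. The mean was 2049 ± 26.7 CPM in Ell3 KD and 2360 ± 148.0 CPM in Ctrl (SD, n = 2 each), a log2 fold change of -0.20 ± 0.03 (SE; 95% interval -0.27 to -0.14; adjusted p = 7.87e-06 in edgeR). This is 1.15-fold lower.

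Bmp15 is the X-linked partner of Gdf9 and forms heterodimers with it. Its level was 2050 and 2078 CPM in Ell3 KD oocytes, against 2003 and 1970 CPM in Ctrl oocytes. The Ell3 KD libraries were slightly above the Ctrl libraries, at 2064 ± 19.8 CPM in Ell3 KD and 1986 ± 23.2 CPM in Ctrl. The log2 fold change of 0.06 ± 0.03 had a 95% interval of 0.00 to 0.11 and did not pass the test (adjusted p = 0.0832 in edgeR). With limma-voom it did, at an adjusted p of 0.0134 and a log2 fold change of 0.05.

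The balance of Gdf9 to Bmp15 transcripts was lower in both Ell3 KD libraries. Per length, there were 1.49 and 1.5 Gdf9 for each Bmp15 in Ell3 KD, against 1.85 and 1.72 in Ctrl. The groups did not overlap, and the log2 ratio differed by -0.26 between Ell3 KD and Ctrl. The exact two-sided permutation test gave p = 0.333, the smallest p that this design allows. By raw counts alone the ratio was 0.990 and 0.995 in Ell3 KD and 1.23 and 1.14 in Ctrl.

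**Figure D2:**
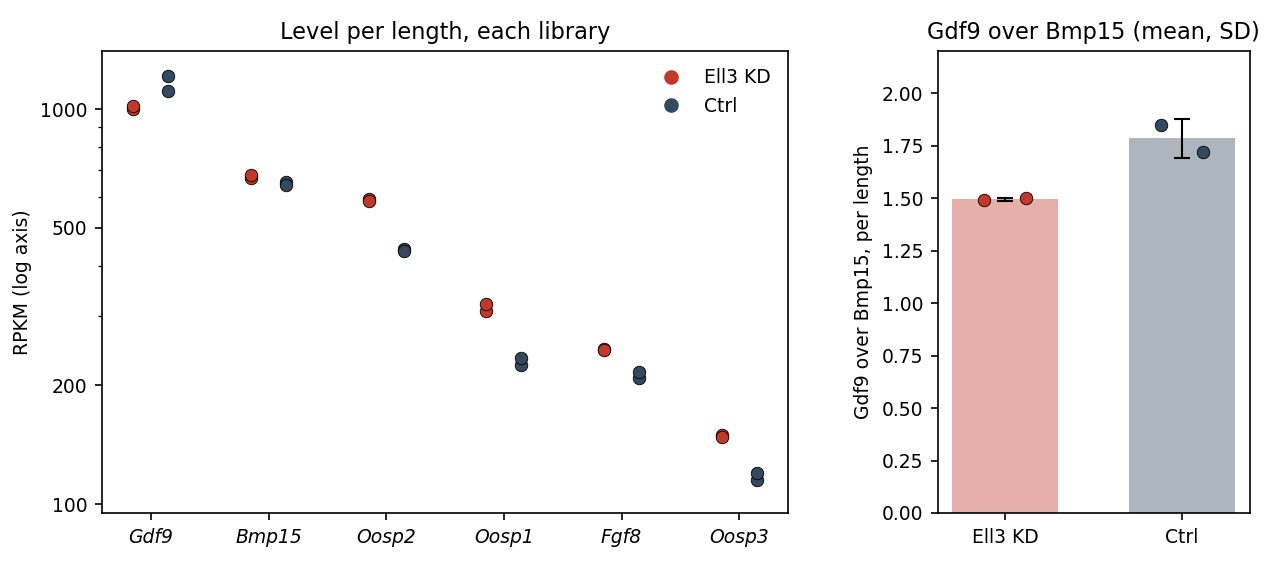
Left, level per length of each gene in each library (RPKM, log axis), in order of the mean. Right, Gdf9 over Bmp15 per length, with libraries as points, means as bars and SD as whiskers (n = 2 each). Gdf9 is highest in every library, and the ratio lies at 1.49 and 1.5 in Ell3 KD, below 1.85 and 1.72 in Ctrl.

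Fgf8 had 332.7 and 332.3 CPM in Ell3 KD oocytes, against 282.1 and 291.6 CPM in Ctrl oocytes. The Ell3 KD libraries were nearly equal and both stood above the Ctrl libraries. The log2 fold change was 0.21 ± 0.03 (SE; 95% interval 0.15 to 0.28; adjusted p = 7.19e-06 in edgeR), or 1.16-fold higher.

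Among the 6 genes, the Oosp genes had the highest fold changes. Oosp1 had 300.3 and 312.6 CPM in Ell3 KD oocytes, against 219.0 and 227.6 CPM in Ctrl oocytes. Oosp2 had 400.8 and 396.5 CPM in Ell3 KD oocytes, against 299.6 and 297.0 CPM in Ctrl oocytes. Oosp3, the least abundant, had 123.0 and 121.9 CPM in Ell3 KD oocytes, against 94.6 and 98.8 CPM in Ctrl oocytes. For each of these genes both Ell3 KD libraries were above both Ctrl libraries, and the libraries of a group lay close together. The log2 fold change was 0.46 ± 0.03 for Oosp1 (adjusted p = 8.52e-11 in edgeR), 0.42 ± 0.03 for Oosp2 (adjusted p = 7.89e-11 in edgeR) and 0.34 ± 0.04 for Oosp3 (adjusted p = 1.54e-07 in edgeR). The 95% interval was 0.39 to 0.53 for Oosp1, 0.35 to 0.48 for Oosp2 and 0.26 to 0.42 for Oosp3, and each pair of intervals overlapped.

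The shares of the Oosp genes in their summed counts were similar in all libraries. Of the counts on these 3 genes, Oosp2 took 48.6% and 47.7% in Ell3 KD and 48.9% and 47.6% in Ctrl (exact permutation p = 1). Oosp1 took 36.4% and 37.6% in Ell3 KD and 35.7% and 36.5% in Ctrl (exact permutation p = 0.667). Oosp3 took 14.9% and 14.7% in Ell3 KD and 15.4% and 15.9% in Ctrl, where the groups did not overlap but the exact permutation p of 0.333 is the smallest possible. Over the 5 exact two-sided tests made here, the smallest Benjamini-Hochberg adjusted p of these permutation tests was 0.833.

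**Figure D3:**
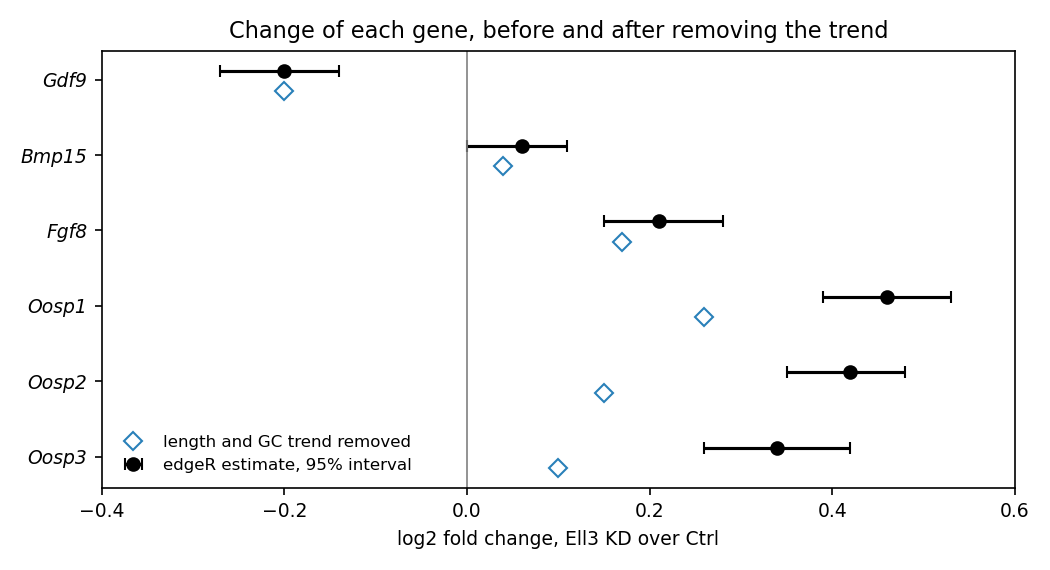
Log2 fold change of each gene, Ell3 KD over Ctrl, from edgeR (circles, with 95% intervals) and after removal of the trend with length and base composition (diamonds). Gdf9 stays at -0.20, while the Oosp genes move toward 0 and Oosp3 reaches 0.10.

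The Oosp fold changes were smaller once transcript length and base composition were taken into account. The Oosp transcripts are short and rich in A and T, with 972 bases and 41.98% GC for Oosp1, 677 bases and 42.10% GC for Oosp2, and 807 bases and 38.66% GC for Oosp3. The median over tested coding genes was 2902 bases and 49.8% GC. Over these libraries, short transcripts were higher in Ell3 KD in general. The median log2 fold change was 0.22 for the 921 genes with a transcript under 1000 bases, against -0.02 for the 12846 longer ones, and 46.8% of the short class were called higher, against 21.1% of the longer ones. With the length and GC trend over all coding genes tested taken out, an alternative chosen with the data in view, Oosp1 stood at 0.26 (adjusted p = 1.16e-06 from the edgeR standard errors), Oosp2 at 0.15 (adjusted p = 3.08e-04) and Oosp3 at 0.10 with its call lost (adjusted p = 0.0509). The fall of Gdf9, with 1793 bases and 53.04% GC, stayed at -0.20, and Fgf8, with 1117 bases and 62.76% GC, stood at 0.17 (adjusted p = 1.41e-04). Whether the trend arose in the oocytes or in making the libraries was not tested.

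**Figure D4:**
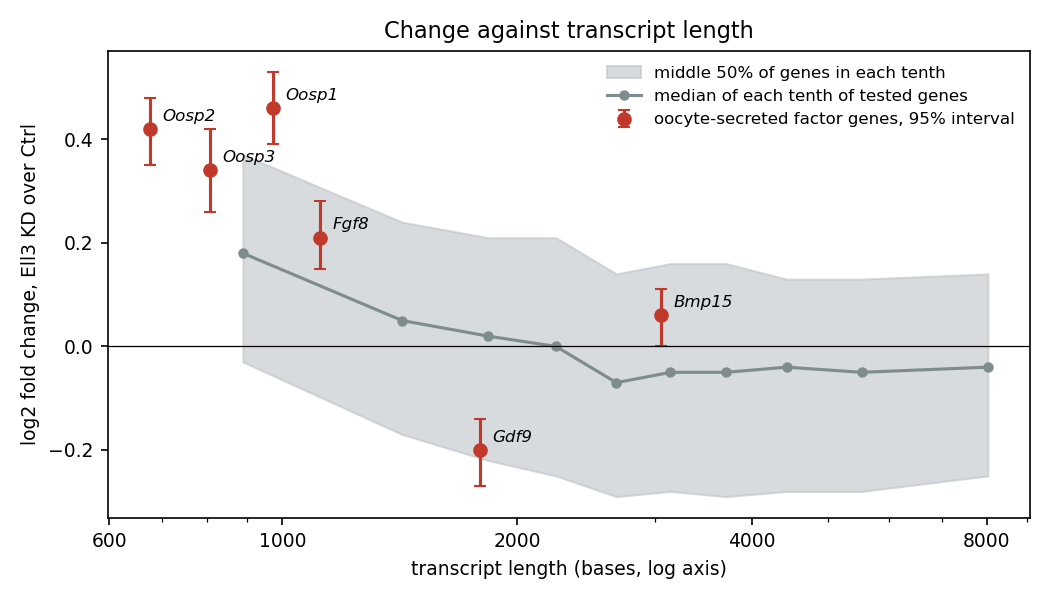
Log2 fold change, Ell3 KD over Ctrl, against transcript length in bases (log axis). The grey line joins the medians of 10 equal-sized classes of tested coding genes, the band spans the middle 50% of genes in each, and red points are the 6 genes with 95% intervals. The median is 0.18 in the shortest class and between -0.07 and 0.05 in the other classes. The Oosp genes and Fgf8 belong to the shortest class and lie above its median, Fgf8 only slightly.

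The genes beside the Oosp genes did not all share the change. Within 100000 bases on either side, 4 other protein-coding genes had enough counts to be tested. Ms4a6d, at 23.1 ± 0.0729 CPM in Ell3 KD and 23.5 ± 0.760 CPM in Ctrl, had a log2 fold change of -0.03 ± 0.07 (adjusted p = 0.777 in edgeR). Ms4a3, next to Oosp2, was nearly silent at 0.163 CPM in Ell3 KD and 0.230 CPM in Ctrl and did not pass the test. On the far side Mrpl16, which encodes a mitochondrial ribosomal protein, rose by 0.33 ± 0.07 on the log2 scale (adjusted p = 5.45e-04 in edgeR), and Stx3, which encodes a syntaxin, had a log2 fold change of -0.27 ± 0.13 (adjusted p = 0.104 in edgeR). Gif, the nearest coding gene beyond Oosp3, had at most 11 counts in any library.

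**Figure D5:**
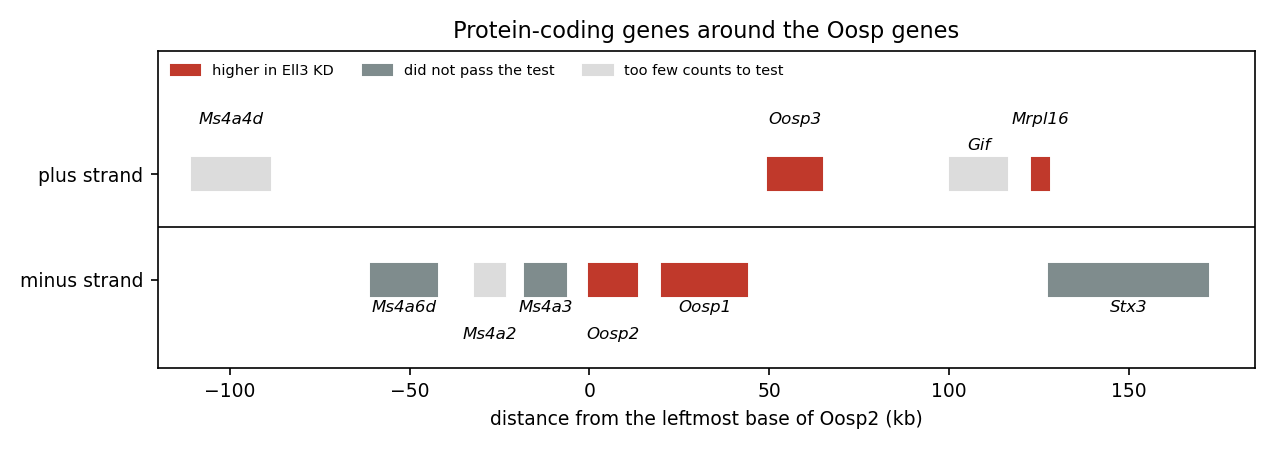
Protein-coding genes around the Oosp genes, drawn to scale by distance from the leftmost base of Oosp2 (kb, horizontal axis) and by strand. Red genes were called higher in Ell3 KD, dark grey genes did not pass the test and light grey genes had too few counts. Oosp1, Oosp2 and Oosp3 are side by side and called higher, with Mrpl16 the only other red gene in view.

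Genes with the pattern most like each called member were sought among 3713 named genes at a mean of at least 50 CPM, by the distance between log2 CPM values centred on each gene's mean over the 4 libraries. Nfs1, a cysteine desulfurase gene, and Prss44, a serine protease gene, were nearest to Gdf9, with log2 fold changes of -0.21 and -0.20. Bbip1 was among the nearest to Fgf8, at 0.22. Med6, of the Mediator complex, and the helicase gene Ddx19a were nearest to Oosp1, at 0.45 and 0.43. Strbp and the ATP synthase subunit gene Atp5l were nearest to Oosp2, at 0.42 and 0.41, and Rbx1 and Naca to Oosp3, at 0.34 and 0.35. The 4 libraries fall in 2 groups, so a small distance goes with a like fold change.

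Among transcription regulators of the oocyte, Nobox fell and Lhx8 did not pass the test, and these had the highest levels. Nobox, a homeodomain factor that activates Gdf9 in mice, had 2099 and 2078 CPM in Ell3 KD oocytes, against 2594 and 2448 CPM in Ctrl oocytes. As with Gdf9 and 35.7% of all genes tested, both Ell3 KD libraries were below both Ctrl libraries. The log2 fold change of Nobox was -0.27 ± 0.03 (adjusted p = 1.73e-08 in edgeR). A link between the levels of Nobox and Gdf9 was not tested. Lhx8, at 392.9 ± 3.21 CPM in Ell3 KD and 410.4 ± 4.26 CPM in Ctrl, did not pass the test (adjusted p = 0.0978 in edgeR). Taf4b, a TFIID subunit gene of the germ line, fell by 0.76 ± 0.06 and the orphan receptor gene Nr6a1 by 0.34 ± 0.05 on the log2 scale. Of the 13 genes of this list that were tested, 4 were called higher and 3 lower, with a median log2 fold change of -0.06. The 4 called higher were Foxo3, Tbpl2, Lin28a, which encodes an RNA-binding protein, and Gata6, which granulosa cells also express. Foxo3 rose by 0.18 ± 0.03 on the log2 scale, at 302.7 ± 1.53 CPM in Ell3 KD and 267.5 ± 7.67 CPM in Ctrl. Tbpl2 rose by 0.22 ± 0.05, at 68.6 ± 0.508 CPM in Ell3 KD and 58.7 ± 2.23 CPM in Ctrl. For this list, the marker lists above and the lists below, the shares over all genes tested were 21.1% called higher and 21.8% lower. Figla, at 0.02 ± 0.06, did not pass the test (adjusted p = 0.812 in edgeR).

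Of 32 genes listed as other ligands of the TGF-beta family, 12 had enough counts to be tested. Of these, 4 were called higher and none lower, with a median log2 fold change of 0.13. The 32 include Bmp1, whose product is a protease and not a ligand, and which was too scarce to test. The abundant ones were Tgfb2, at 713.9 ± 18.6 CPM in Ell3 KD and 706.1 ± 6.96 CPM in Ctrl, and Bmp6, at 142.9 ± 2.42 CPM in Ell3 KD and 145.9 ± 0.449 CPM in Ctrl, and neither passed the test (adjusted p = 0.703 and 0.533 in edgeR). The called ligands other than Bmp5 (0.14 ± 0.04) were scarce. Gdf15, a stress-response ligand, was at 3.39 ± 0.506 CPM in Ell3 KD and 0.918 ± 0.277 CPM in Ctrl, the inhibin alpha gene Inha at 2.33 ± 0.209 CPM in Ell3 KD and 1.04 ± 0.137 CPM in Ctrl, and Gdf11 at 4.03 ± 0.208 CPM in Ell3 KD and 2.56 ± 0.128 CPM in Ctrl. At an unadjusted p under 0.05 edgeR had 1 lower, DESeq2 and limma-voom called 0 lower, and 1 was called lower without Ctrl replicate 1.

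The receptors and SMADs went both ways. Of 20 listed, 16 were tested, 4 were called higher and 4 lower, with a median log2 fold change of -0.03. The type II receptor gene Bmpr2, through which GDF9 and BMP15 act on follicle cells, rose by 0.13 ± 0.05 on the log2 scale, and the type I receptor gene Tgfbr1 fell by 0.81 ± 0.11, to 5.67 ± 0.266 CPM in Ell3 KD oocytes, against 9.91 ± 0.338 CPM in Ctrl oocytes. The co-receptor gene Tgfbr3 fell by 0.59 ± 0.06 and the signal carrier gene Smad1 rose by 0.48 ± 0.08. Smad2, at 134 ± 1.90 CPM in Ell3 KD and 141.4 ± 0.00372 CPM in Ctrl, and Bmpr1b, at 87.7 ± 1.28 CPM in Ell3 KD and 86.1 ± 1.37 CPM in Ctrl, did not pass the test (adjusted p = 0.0939 and 0.647 in edgeR). The highest edgeR adjusted p of the genes said to have changed here is that of Bmpr2, 0.0304. The count called higher was 2, not 4, without Ell3 KD replicate 2, with DESeq2 and with library totals alone.

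Of 9 genes listed for proprotein processing, 8 convertases and the secretory pathway kinase gene Fam20c, 5 were tested, all of them convertases. Furin, the most abundant, had 137.2 and 113.6 CPM in Ell3 KD and 140.4 and 121.3 CPM in Ctrl, so the groups overlapped (log2 fold change -0.06 ± 0.06, adjusted p = 0.465 in edgeR). Pcsk6 was the only one called, with a log2 fold change of -0.66 ± 0.11 (adjusted p = 1.67e-05 in edgeR), at 6.94 ± 0.242 CPM in Ell3 KD and 10.9 ± 0.267 CPM in Ctrl. Mbtps1, at 17.9 ± 0.401 CPM in Ell3 KD and 18.5 ± 2.02 CPM in Ctrl, did not pass the test (adjusted p = 0.694 in edgeR). The median of the 5 was -0.26. Of 20 antagonists and inhibitors of the family, 14 were tested, 3 were called higher and 1 lower, with a median of 0.07. On the log2 scale the ubiquitin ligase gene Smurf1 rose by 0.40 ± 0.10 and the BMP-binding Twsg1 fell by 0.41 ± 0.09, while Ski (0.08 ± 0.04) and Smurf2 (-0.04 ± 0.05), the most abundant, did not pass the test. Nbl1 was called on 16 and 23 counts in Ell3 KD against 0 and 0 in Ctrl. With Nbl1 at the limit set by 3 counts over the Ctrl group, the median of the list was again 0.07. Nbl1 had the highest log2 fold change of the list either way, so this could not move the median. The count of antagonists called higher was 1 without Ell3 KD replicate 2 and 5 without Ctrl replicate 2, and 2 convertases were called lower without Ell3 KD replicate 1, Ctrl replicate 1 or Ctrl replicate 2.

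Around Fgf8, the other genes of the FGF family were scarce. Of 21 listed, 16 were under 1 CPM in every library and 10 were tested. Of these, 4 were called higher and 1 lower, with a median log2 fold change of 0.30. The 21 include Fgf11, Fgf12, Fgf13 and Fgf14, whose products stay inside the cell and are not secreted ligands. Fgf12 and Fgf13 were among those tested, at -0.08 ± 0.83 and -0.26 ± 0.55, and neither was called. Fgf1, the most abundant, was at 20.9 ± 0.652 CPM in Ell3 KD and 21.5 ± 1.6 CPM in Ctrl and did not pass the test (adjusted p = 0.686 in edgeR). On the log2 scale Fgf16 rose by 1.26 ± 0.17, to 4.69 ± 0.0903 CPM in Ell3 KD oocytes, against 1.96 ± 0.256 CPM in Ctrl oocytes, and Fgf10 rose by 0.30 ± 0.10. Fgf22 was the ligand called lower, with 7 and 2 counts in Ell3 KD against 14 and 13 in Ctrl (log2 fold change -2.26 ± 0.74, adjusted p = 0.015 in edgeR). Of 21 FGF receptors, adaptors and feedback genes, 17 were tested, 5 were called higher and 3 lower, with a median of 0.18. The receptor gene Fgfr2 rose by 0.29 ± 0.05, the phosphatase gene Ptpn11 by 0.19 ± 0.04 and the feedback inhibitor gene Spry2 by 0.96 ± 0.15, while Spry4, the most abundant at 424.6 ± 1.56 CPM in Ell3 KD and 434.6 ± 0.431 CPM in Ctrl, did not pass the test (adjusted p = 0.390 in edgeR). Among Fgf16, Fgf10, Fgfr2, Ptpn11 and Spry2, Fgf10 had the highest edgeR adjusted p, 0.0145. The counts of the FGF family list were 2 higher without Ell3 KD replicate 1 or 2, and 0 lower with any 1 library left out. They were 1 higher and 0 lower with DESeq2, and 2 higher and 0 lower among genes at a mean of at least 5 CPM. Of the receptors, adaptors and feedback genes, DESeq2 called 4 higher and 1 lower.

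Genes listed for the zona pellucida and egg surface, most of which the oocyte also exports or displays, were called in both directions. Of 8 tested, 1 was called higher and 3 lower, with a median log2 fold change of -0.06. The 8 include Zp3r, which is not an egg surface gene and was not called (-0.08 ± 0.16). Over all genes tested, 21.1% were called higher and 21.8% lower. Astl, the gene of the protease ovastacin, had 567.9 and 555.6 CPM in Ell3 KD oocytes, against 702.5 and 676.6 CPM in Ctrl oocytes and fell by 0.30 ± 0.03 on the log2 scale (adjusted p = 1.69e-08 in edgeR). Zp1 fell by 0.12 ± 0.03, Cd9 by 0.14 ± 0.03, and Zp3, at 7403 ± 53.6 CPM in Ell3 KD and 7425 ± 20.4 CPM in Ctrl, did not pass the test. Izumo1r was the gene called higher, by 0.13 ± 0.03 (adjusted p = 0.00264 in edgeR). It was at 263.1 ± 10.2 CPM in Ell3 KD and 239.9 ± 2.58 CPM in Ctrl. Plac1, the relative of the Oosp genes, was at 1.40 ± 0.291 CPM in Ell3 KD and 1.01 ± 0.487 CPM in Ctrl (adjusted p = 0.236 in edgeR). The count called higher was 0 without Ell3 KD replicate 1 and 2 without Ctrl replicate 1.

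Nothing in the labels says whether a group's libraries stem from different animals, so the p-values measure only how these libraries vary, and that variation may be technical. With an assumed biological coefficient of variation of 0.2 in place of the fitted 0.0421, none of the 6 genes was called by edgeR, with adjusted p from 0.457 for Oosp1 to 0.990 for Bmp15 and 0 of the 6 at an unadjusted p under 0.05. DESeq2 and limma-voom, at the fitted spread, called 4 and 5 of them higher and 1 lower.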

How the data were processed

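Poly(A) RNA of 5 oocytes per library was amplified by a Smart-seq2 protocol for 16 cycles and read as 150-bp paired ends, per the labels' protocols. The authors deposited raw counts per gene symbol, 1 file per library. FastQC 0.11.5, HISAT2 2.2.1.0 and featureCounts were used with mm10, per the submitters' processing notes. The annotation, strand setting and handling of multiply mapped reads are not stated in the labels or notes.

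Groups and replicate numbers came from the sample titles. Tests ran in edgeR 4.0.16 under R 4.3.3 (filter by filterByExpr, TMM factors between 0.984 and 1.015, quasi-likelihood test, two-sided, no covariates) over 17879 genes, with Benjamini-Hochberg adjustment. Standard errors are the log2 fold change over the square root of F, and intervals are at 95%. Alternatives used DESeq2 1.42.0, limma 3.58.1, other scalings and filters, thinning, a replicate block and omission of each library. The scripts were tested on simulated data. Exon lengths and positions came from GENCODE M21 (GRCm38), where 49627 symbols matched 1 gene. Chi-square per degree of freedom within groups was 4.17 in Ell3 KD and 4.08 in Ctrl, above the 1 of sampling noise, so each library was counted as 1 sample. A gene with 0 counts in a library lies below 0.0335 to 0.0665 CPM (3 counts, counting error only).

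The members, the lists and the tests were chosen with earlier results of these data known. Beyond the members, the text takes from each list the 2 genes with the highest mean and up to 3 called genes with the smallest p, the 2 genes nearest in pattern to each called member, Ell3, and genes beside the Oosp genes. Figla, Bmpr2, Bmp5, Plac1, Mrpl16, Stx3, Ms4a6d and the scarce follicle cell markers were named after values were seen. So were Foxo3, Tbpl2, Lin28a, Gata6, Izumo1r, Zp3r, Bmp1, Fgf11, Fgf12, Fgf13 and Fgf14. For Fgf8, 1 gene that this rule names is not reported here.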

Additional observations from a re-analysis of the deposited data

How the results depend on the processing

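Of 15 alternatives to the test, 14 left the direction and call of Gdf9, Fgf8, Oosp1 and Oosp2 as reported. With the assumed coefficient of variation, 0 members were called higher and 0 lower, at unchanged log2 fold changes of -0.20 for Gdf9, 0.21 for Fgf8, 0.46 for Oosp1, 0.42 for Oosp2 and 0.34 for Oosp3. Oosp3 also lost its call, at 0.10, with the length and GC trend removed. Bmp15, at 0.02 to 0.07, passed the test with limma-voom (0.05), without a low-count filter (0.07) and with the replicate block (0.06). The labels do not say what the replicate numbers share, and the same-number deviations correlated at 0.029 over genes. The block changed the call of no other member. The combined share of the 6 genes, lower by -0.0122 percentage points in Ell3 KD, was higher by 0.00219 after TMM scaling. Leaving out 1 library at a time gave log2 fold changes of -0.27 to -0.14 for Gdf9, with Ctrl replicate 2 and Ctrl replicate 1 left out, 0.19 to 0.23 for Fgf8, 0.43 to 0.49 for Oosp1, 0.41 to 0.43 for Oosp2 and 0.31 to 0.37 for Oosp3, each still called. With every library thinned to the lowest total, the log2 fold changes were -0.20 for Gdf9, 0.06 for Bmp15, 0.21 for Fgf8, 0.47 for Oosp1, 0.41 for Oosp2 and 0.33 for Oosp3, with the same calls. For the lists, 11 of 16 counts moved by over 1.5 times with the assumed coefficient of variation, 4 with DESeq2, 4 at a mean of at least 5 CPM, 1 with library totals alone, 1 without a low-count filter, 3 to 4 with 1 library left out, and 0 of 16 under RLE factors, upper quartile factors, limma-voom, thinning or the block. Except where the settings themselves show it, the cause was not tested.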
